A study of Homo sapiens with 6 samples.

Results

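The peaks described here are those that ChIRP-seq of the long noncoding RNA (lncRNA) CRLM1 placed inside lncRNA genes and away from any protein-coding gene. In ChIRP-seq, crosslinked chromatin is captured through biotinylated DNA probes that hybridise to a chosen RNA, and the DNA that comes with it is sequenced. A peak was taken when its midpoint lay in the body of a GENCODE lncRNA gene on chromosomes 1 to 22, outside the body of every protein-coding gene and more than 2 kb from every protein-coding transcription start site (TSS). Of 36484 autosomal peaks in the 4 lists (36932 peaks on all chromosomes), 5599 met this rule and are called lncRNA-only peaks below. The lists are called Input-1, LacZ-1, Input-2 and LacZ-2 after the control and the replicate. LncRNA-only peaks numbered 1521 of 9251 in Input-1, 1440 of 10234 in LacZ-1, 2590 of 16638 in Input-2 and 48 of 361 in LacZ-2.

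All 6 libraries came from HCT116, an established human colorectal carcinoma cell line, and the labels give no treatment other than the probes. The 3 groups held 2 replicates each: chromatin pulled down with CRLM1 antisense oligos, chromatin pulled down with LacZ antisense oligos (probes to a bacterial gene that human cells lack), and genomic DNA of the input. As the labels name the lists, each gives the peaks of 1 CRLM1 pull-down called over 1 control of the same replicate number, so the lists against Input and against LacZ within a replicate share a pull-down library and are not independent. The lists hold no read counts, and the depth of the libraries is therefore unknown.

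LncRNAs are transcripts with little or no coding capacity, and many stay in the nucleus near the locus from which they are made. Their genes include intergenic units (LINC), antisense partners of coding genes (-AS), divergent transcripts that start from a coding gene's promoter (-DT) and hosts of microRNAs or small nucleolar RNAs. Many are long, mostly intronic and spliced from few exons, and several of them lie in gene-poor stretches. Some lncRNA genes also enclose short genes transcribed by RNA polymerase III, such as those for U6 RNA of the spliceosome, vault RNAs and transfer RNAs.

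The sequences of the regions on which the results turn are shown first, read from GRCh38. The first pair come from regions with overlapping peaks of both replicates that also held a small RNA gene. Each shows that gene in capitals with 60 flanking bases on either side, not the exact stretch shared by the replicates. The strand is given for each. The last is a stretch shared by the replicates and was called in both against LacZ. It was searched for TCCC and its reverse complement GGGA, the C-rich core letters bound by hnRNPK, a protein partner of CRLM1 studied alongside these data. It held 0 matches and is printed in lower case throughout. The same search found 1 match in the VTRNA1-1 sequence and 2 in the TRS-TGA4-1 sequence, which are not marked.
VTRNA1-1 (vault RNA), chr5:140711216-140711433, plus strand: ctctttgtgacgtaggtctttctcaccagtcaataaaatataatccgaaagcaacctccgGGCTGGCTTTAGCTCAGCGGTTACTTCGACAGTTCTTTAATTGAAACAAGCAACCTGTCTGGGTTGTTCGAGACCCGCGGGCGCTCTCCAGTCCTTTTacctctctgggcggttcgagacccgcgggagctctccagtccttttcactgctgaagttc
TRS-TGA4-1 (a serine transfer RNA), chr6:27505768-27505969, shown on the plus strand: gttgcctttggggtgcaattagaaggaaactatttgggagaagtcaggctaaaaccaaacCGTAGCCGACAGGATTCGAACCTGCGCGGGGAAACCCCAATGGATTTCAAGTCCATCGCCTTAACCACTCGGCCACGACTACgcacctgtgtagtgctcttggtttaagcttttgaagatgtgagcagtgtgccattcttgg
ENSG00000250697 and LINC02160 intron, chr5:33250846-33251035, plus strand: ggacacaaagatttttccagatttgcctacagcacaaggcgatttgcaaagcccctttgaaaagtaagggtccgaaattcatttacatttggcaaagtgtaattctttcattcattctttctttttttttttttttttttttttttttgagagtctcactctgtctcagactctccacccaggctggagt

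The share of each list that fell in lncRNA-only sequence was compared with the share of the genome that such sequence makes up. The rule covers 414.3 Mb, or 15.0% of the 2756 Mb of ungapped autosomal sequence. The lncRNA-only share was 16.4% of Input-1 (95% exact binomial interval 15.7 to 17.2), 15.6% of Input-2 (15.0 to 16.1), 14.1% of LacZ-1 (13.4 to 14.8) and 13.3% of LacZ-2 (9.97 to 17.2). The intervals cover counting error only and treat peaks as independent. Both Input lists therefore sat at or slightly above the 15.0% of sequence, and both LacZ lists sat below it, with the interval of the smallest list spanning it.

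**Figure D1:**
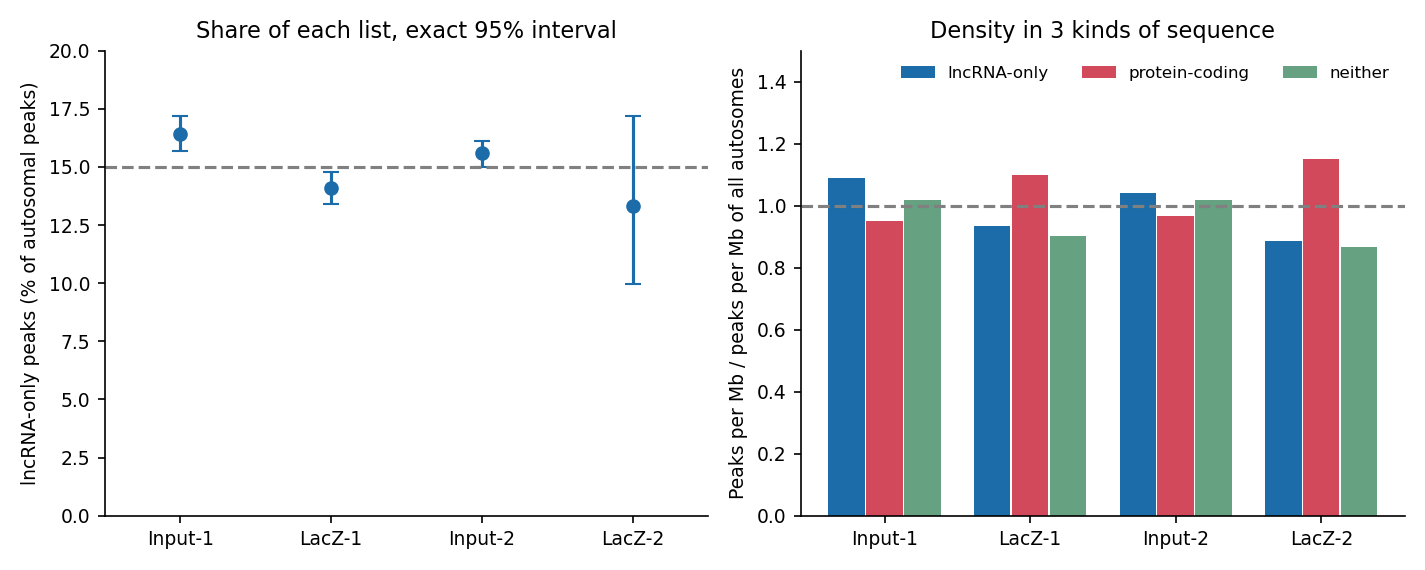
Left, the percentage of each list's autosomal peaks that were lncRNA-only, with exact 95% binomial intervals and a dashed line at the 15.0% of ungapped autosomal sequence that the rule covers. Right, peaks per Mb in lncRNA-only, protein-coding (bodies and 2 kb around start sites) and all other sequence, divided by the list's peaks per Mb over all autosomes; the lncRNA-only bars are 1.09 and 1.04 for the Input lists and 0.936 and 0.885 for the LacZ lists.

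Expressed per Mb, lncRNA-only sequence held 3.67 peaks in Input-1, 3.48 in LacZ-1, 6.25 in Input-2 and 0.116 in LacZ-2. The protein-coding class held 3.19, 4.10, 5.84 and 0.150 peaks per Mb in the same order. The order of these classes thus differed between the controls. LncRNA-only sequence was denser than protein-coding sequence against Input in both replicates, and less dense against LacZ in both replicates. In LacZ-2 this rests on 48 lncRNA-only peaks. Sequence in neither class (3.43, 3.34, 6.18 and 0.114 peaks per Mb) lay next to the lncRNA-only values. With 1 list per replicate and control, no test of this difference was made.

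Most lncRNA-only peaks had scores close to the lowest in their list. The score is the value the authors' peak caller gave each peak, and in every list the lowest was about 50. The median lncRNA-only score was 55.81 in Input-1, 57.56 in LacZ-1, 57.45 in Input-2 and 55.22 in LacZ-2. The medians of the other autosomal peaks of the same lists were 56.14, 58.05, 57.73 and 56.20. Scores of 100 or more were reached by 26, 28, 40 and 0 lncRNA-only peaks in the same order of lists. These were 1.71%, 1.94%, 1.54% and 0% of them, beside 2.41%, 2.06%, 1.66% and 0.639% of the other peaks. A count of 0 of 48 allows a share of up to 6.25% where 3 counts are taken as the limit, and of up to 7.40% by the exact interval. Median widths were 388, 392, 400 and 503 bp, against 390, 396, 402 and 507 bp in the other peaks. LncRNA-only peaks thus lay within 1 score unit and 5 bp of the other peaks at the median in every list.

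Within a replicate, many lncRNA-only peaks were called over both controls. In replicate 1, 769 peaks had the same start and end in both lists, or 50.6% of the lncRNA-only peaks against Input and 53.4% of those against LacZ. Of all autosomal peaks of these lists, 50.2% and 45.3% overlapped a peak of the other list. In replicate 2, 46 peaks had the same start and end, or 1.78% of those against Input and 95.8% of those against LacZ, beside overlaps of 2.06% and 94.7% of all peaks. The lncRNA-only shares thus lay near those of all peaks except in LacZ-1, where 53.4% stood above 45.3%. Counted once per replicate, the 5599 list entries came down to 4784 distinct intervals, 2192 in replicate 1 and 2592 in replicate 2.

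Between replicates, few lncRNA-only peaks were found again. Against Input, 17 of the 1521 lncRNA-only peaks of replicate 1 (1.12%, exact interval 0.652 to 1.78) overlapped a peak of replicate 2 by at least 1 bp, beside 1.66% of all autosomal peaks of that list. In the other direction, 17 of 2590 (0.656%, 0.383 to 1.05) overlapped a peak of replicate 1, beside 0.902% of all peaks. Against LacZ, 2 of 1440 lncRNA-only peaks of replicate 1 (0.139%, 0.0168 to 0.501) and 2 of 48 of replicate 2 (4.17%, 0.509 to 14.3) overlapped, beside 0.0586% and 1.66% of all peaks. For overlaps of at least 1 bp, the lncRNA-only shares lay near those of all peaks, and in each list their intervals included the share of all peaks. Allowing a gap of up to 10 kb raised the share of replicate 1 Input peaks with a neighbour in replicate 2 to 14.5%, beside 16.3% of all peaks.

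There were 18 regions in which lncRNA-only peaks of the 2 replicates overlapped, among 175 such regions over all autosomal peaks. The shared stretch was between 32 and 524 bp long, with a median of 259 bp. Of the 18, 17 were called against Input in both replicates and 2 against LacZ in both replicates. 9 regions were called in 2 lists, 8 in 3 lists and 1 in all 4. The midpoint of the shared stretch was in an intron at 16 regions and in an exon at 2, and the nearest protein-coding gene was more than 100 kb away at 11. In 12 of the 18, the lower of the replicates' best scores was under 60, so most of the overlapping pairs included a peak close to the lowest score in the lists.

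**Figure D2:**
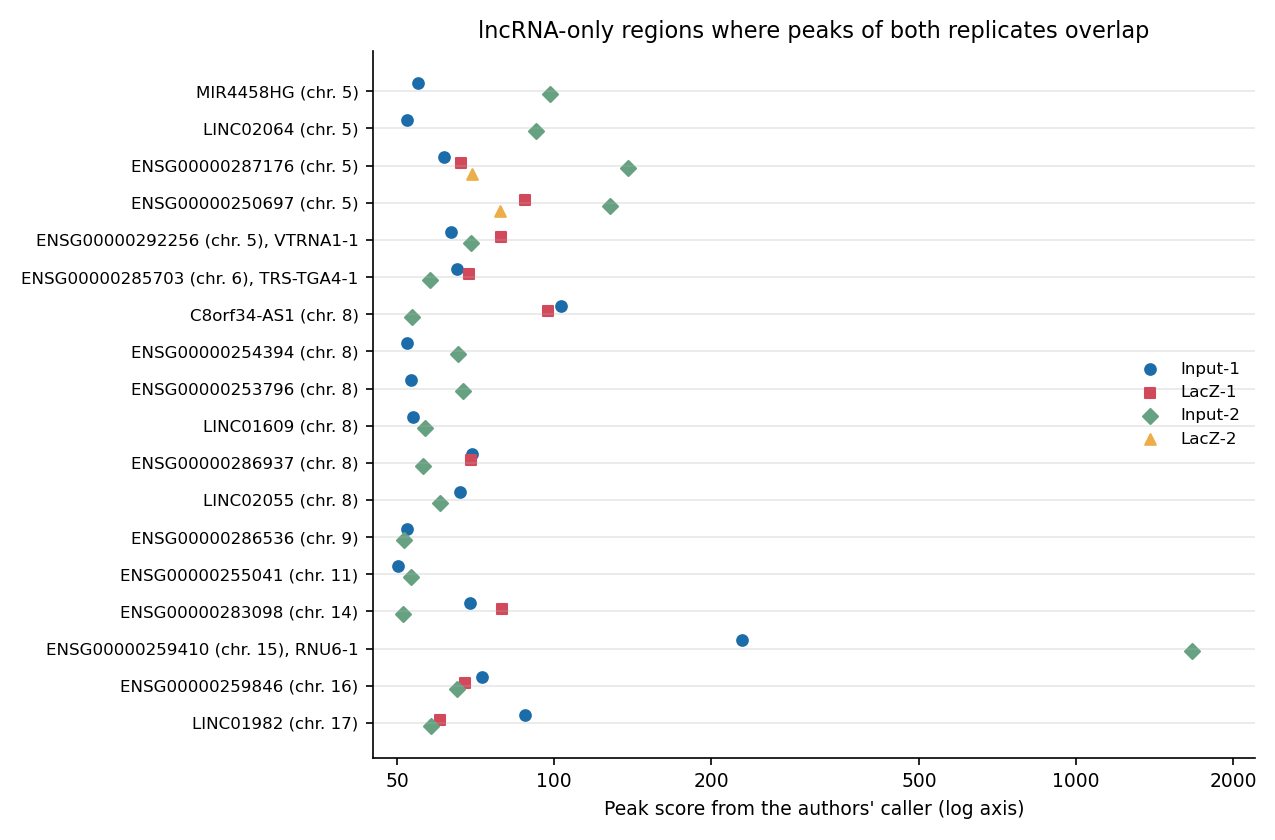
Peak scores (log axis) at the 18 regions where lncRNA-only peaks of both replicates overlapped, by list; each row is a region, named by a lncRNA gene, its chromosome and any small RNA gene in it. Scores at RNU6-1 (229.19 and 1670.06, both against Input) lie apart from the others, the highest of which is 138.5, and ENSG00000287176 is the row with a point from all 4 lists.

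The strongest lncRNA-only peak lay at the U6 gene RNU6-1, whose RNA forms part of the catalytic core of the spliceosome. It is enclosed by the lncRNA gene ENSG00000259410 on chromosome 15, and the 2 genes run on opposite strands. In Input-2 the score was 1670.06, the highest of all 16638 autosomal peaks of that list. In Input-1 it was 229.19, rank 42 of 9251. It was not called against LacZ in either replicate. The replicate 1 peak covered all 107 bp of the gene, whereas the replicate 2 peak covered its first 35 bp and 398 bp upstream of its start, so the shared stretch lay mostly upstream of the gene. The nearest protein-coding gene, SKOR1, was 5428 bp away.

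The vault RNA gene VTRNA1-1 lay under peaks of both replicates as well. Vault RNAs are short components of the vault particle, a large cytoplasmic ribonucleoprotein. VTRNA1-1 (chr5:140711276-140711373) is enclosed by ENSG00000292256, a lncRNA gene of 22.1 kb on the plus strand, and its 98 bp were fully covered in each replicate. The scores were 63.31 in Input-1, 78.93 in LacZ-1 and 69.41 in Input-2, with no call in LacZ-2. VTRNA1-2, a second vault RNA gene in the same lncRNA gene, lay under a peak in replicate 1 (61.74 against Input and 57.62 against LacZ) and not in replicate 2.

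The third such region held TRS-TGA4-1 (chr6:27505828-27505909), a serine transfer RNA gene inside ENSG00000285703. Its scores were 65.08 in Input-1, 68.75 in LacZ-1 and 57.73 in Input-2. The replicate 1 peak covered all 82 bp of the gene and the replicate 2 peak covered 52 of them. Small RNA genes were looked for only after the U6 region had been seen. Over whole lists, a small nuclear, small nucleolar, vault, transfer or other short RNA gene of RefSeq, microRNAs left out, lay under 6 lncRNA-only peaks in Input-1 (0.394%, beside 0.378% of all autosomal peaks), 6 in LacZ-1 (0.417% beside 0.440%), 6 in Input-2 (0.232% beside 0.210%) and 0 in LacZ-2. Among regions shared by replicates, 3 of 18 lncRNA-only regions and 8 of all 175 held one.

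The region called in all 4 lists lay in an intron of ENSG00000287176 (chr5:30545177-30693984, minus strand), and the closest coding gene was CDH6, a cadherin gene at a distance of 515238 bp. The scores were 61.45 in Input-1, 66.33 in LacZ-1, 138.5 in Input-2 and 69.62 in LacZ-2. The replicate 1 peak, 501 bp wide, lay wholly within that of replicate 2, 597 bp wide. The Input-2 score stood above those of the other lists, which lay between 61.45 and 69.62. With 1 value per list no error can be given.

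A second region on chromosome 5 was called in 3 lists, at an intronic position shared by ENSG00000250697 (minus strand, 410 kb) and LINC02160 (plus strand). Its scores were 87.93 in LacZ-1, 127.76 in Input-2 and 78.63 in LacZ-2, the last being the highest lncRNA-only score of that list. It was not called in Input-1. The replicate 2 peak, whose sequence is printed above, is 190 bp long and lay within the 456 bp of the replicate 1 peak. Its sequence holds an unbroken run of more than 15 T. Runs of 15 or more A or T were found in 27.1% of the lncRNA-only peaks of LacZ-2 and 37.1% of its other peaks.

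Of the other 13 regions, 2 more were on chromosome 5. MIR4458HG, the host gene of the microRNA miR-4458, had an overlapping pair at an exonic position (chr5:8461181-8461542), with scores of 54.88 and 98.24 against Input in replicates 1 and 2. LINC02064 had a pair that shared 66 bp, with scores of 52.12 and 92.23. On chromosome 8 there were 6 regions, in C8orf34-AS1, ENSG00000254394, ENSG00000253796, LINC01609, ENSG00000286937 and LINC02055. C8orf34-AS1 had the highest score among them, 103.06 in Input-1, but 53.41 in replicate 2 and a shared stretch of 32 bp. The remaining 5 were LINC01982 on chromosome 17 (88, 60.37 and 58.15 in the lists other than LacZ-2), ENSG00000259846 on chromosome 16 (72.59, 67.56 and 64.99), ENSG00000283098 on chromosome 14 (69, 79.33 and 51.27), ENSG00000286536 on chromosome 9 (52.31 and 51.54 against Input) and the overlapping genes ENSG00000255041 and ENSG00000286418 on chromosome 11 (50.23 and 53.06 against Input). At all 13 regions other than those in LINC01982, ENSG00000259846 and LINC02055 (66.11 and 60.35 against Input), at least 1 replicate scored under 56.

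At the level of genes, recurrence was far more frequent than at the level of positions. Of 18390 autosomal lncRNA genes, 11897 had some lncRNA-only sequence. A lncRNA-only peak was held by 1059 of them (8.90%) in Input-1, 1141 (9.59%) in LacZ-1, 1587 (13.3%) in Input-2 and 51 (0.429%) in LacZ-2. Both replicates hit 587 genes (4.93%) against Input and 27 (0.227%) against LacZ. The 587 made up 55.4% of the genes of replicate 1 and 37.0% of those of replicate 2. In 569 of the 587, the peaks of the replicates did not overlap, and the closest pair within a gene was 21.7 kb apart at the median (quartiles 7.40 and 43.9 kb). A peak midpoint fell in more than 1 lncRNA gene for 542 of the 5599 entries, and such peaks were counted for each gene.

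The genes hit in both replicates were long. All genes with lncRNA-only sequence had a median of 9.28 kb of it, those hit in both replicates against Input had 220 kb, and those hit in both against LacZ had 271 kb. Among the 505 genes with over 200 kb, 72.1% held a peak in Input-1, 71.5% in LacZ-1, 82.6% in Input-2, and 62.4% in both Input lists. Among the 4859 genes with 1 to 10 kb the same shares were 0.823%, 1.52%, 2.33% and 0.0412%. Per Mb, the density moved less with length. It went from 2.02 peaks per Mb in genes of 1 to 10 kb to 4.37 in genes over 200 kb in Input-1, from 3.65 to 3.53 in LacZ-1 and from 5.68 to 7.16 in Input-2.

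**Figure D3:**
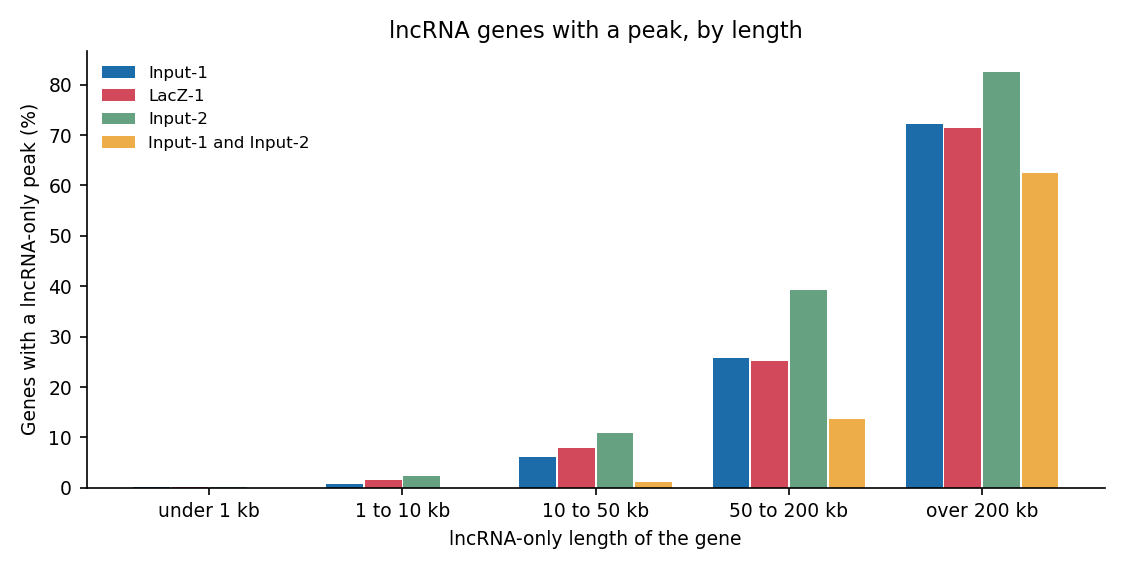
Percentage of lncRNA genes that held a lncRNA-only peak, by the length of their lncRNA-only sequence, in 3 lists and in both replicates against Input. The bars rise from under 3% below 10 kb to between 62.4% and 82.6% above 200 kb.

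The 15 genes with the most peaks in the Input lists included LINC02055, with 43 peaks (19 in replicate 1 and 24 in replicate 2) over 1233 kb of chromosome 8, or 34.9 per Mb. The average over all lncRNA-only sequence was 9.92 per Mb for these lists together, with 15.7 on chromosome 5, 15.2 on chromosome 8 and 9.14 on chromosome 17. ENSG00000254394 had 31 (33.4 per Mb), ENSG00000285939 on chromosome 17 had 28 (25.8 per Mb), and LINC02196 on chromosome 5 had 19 (50.0 per Mb). LINC00536 on chromosome 8 had 17 (45.4 per Mb), with 13 of them in replicate 1. PURPL on chromosome 5, a lncRNA induced by the tumour suppressor p53, had 14 (50.0 per Mb), with 13 of them in replicate 2. ENSG00000229618 and LINC03000 had 18 each (17.5 and 20.6 per Mb). SGO1-AS1 and ENSG00000284418 had 15 each (15.7 and 20.4 per Mb), and ENSG00000285216 had 14 (24.3 per Mb). DISC1FP1 and MIR4300HG had 13 each (19.6 and 14.5 per Mb). ENSG00000231918 and ENSG00000234352 had 12 each (10.2 and 35.0 per Mb). The genes were chosen by their peak count in these lists, and their densities ran from 10.2 per Mb, near the average, to 50.0. The last places were tied and were filled by order of name, as ENSG00000251574, ENSG00000271860, ENSG00000290551, LINC01435, LINC01470, LINC02240 and MIR99AHG also had 12. Among the named genes of this group, the split between replicates ran from mostly replicate 1 (LINC00536) to mostly replicate 2 (PURPL). Against LacZ these 15 genes held between 2 and 8 peaks, of which 4 in all came from replicate 2.

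The 27 genes hit in both replicates against LacZ are the most restricted gene set, since LacZ-2 held 48 lncRNA-only peaks. Of the 27, 25 were also hit in both Input lists, and 18 had over 200 kb of lncRNA-only sequence. By number of LacZ peaks, ENSG00000285939 had 5 in replicate 1 and 2 in replicate 2, ENSG00000227088 had 6 and 1, ENSG00000250697 had 5 and 1, and LINC02196 had 4 and 1. LINC01470, SATB1-AS1, SGO1-AS1, ENSG00000250453, ENSG00000286749 and ENSG00000287474 had 3 and 1 each. SATB1-AS1 and SGO1-AS1 are antisense to or neighbours of genes for a chromatin organiser and a protector of cohesin. ENSG00000255910, LINC02511 and LINC02884 had 2 and 1. The genes with 1 and 1 were NNT-AS1, MAD2L1-DT, STEAP2-AS1, LINC00440, LINC01047, LINC01807, LINC02160, LINC02269, ENSG00000225421, ENSG00000249236, ENSG00000249881, ENSG00000253619, ENSG00000287176 and ENSG00000287844. LINC00440 and LINC01047 overlap, and 1 peak was counted for both in each list. LINC01470 and ENSG00000286749 likewise shared their replicate 2 peak, as did ENSG00000250697 and LINC02160, so the 27 genes are not independent. Positions overlapped between the replicates' LacZ peaks only at the ENSG00000287176 and the ENSG00000250697 and LINC02160 regions given above.

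**Figure D4:**
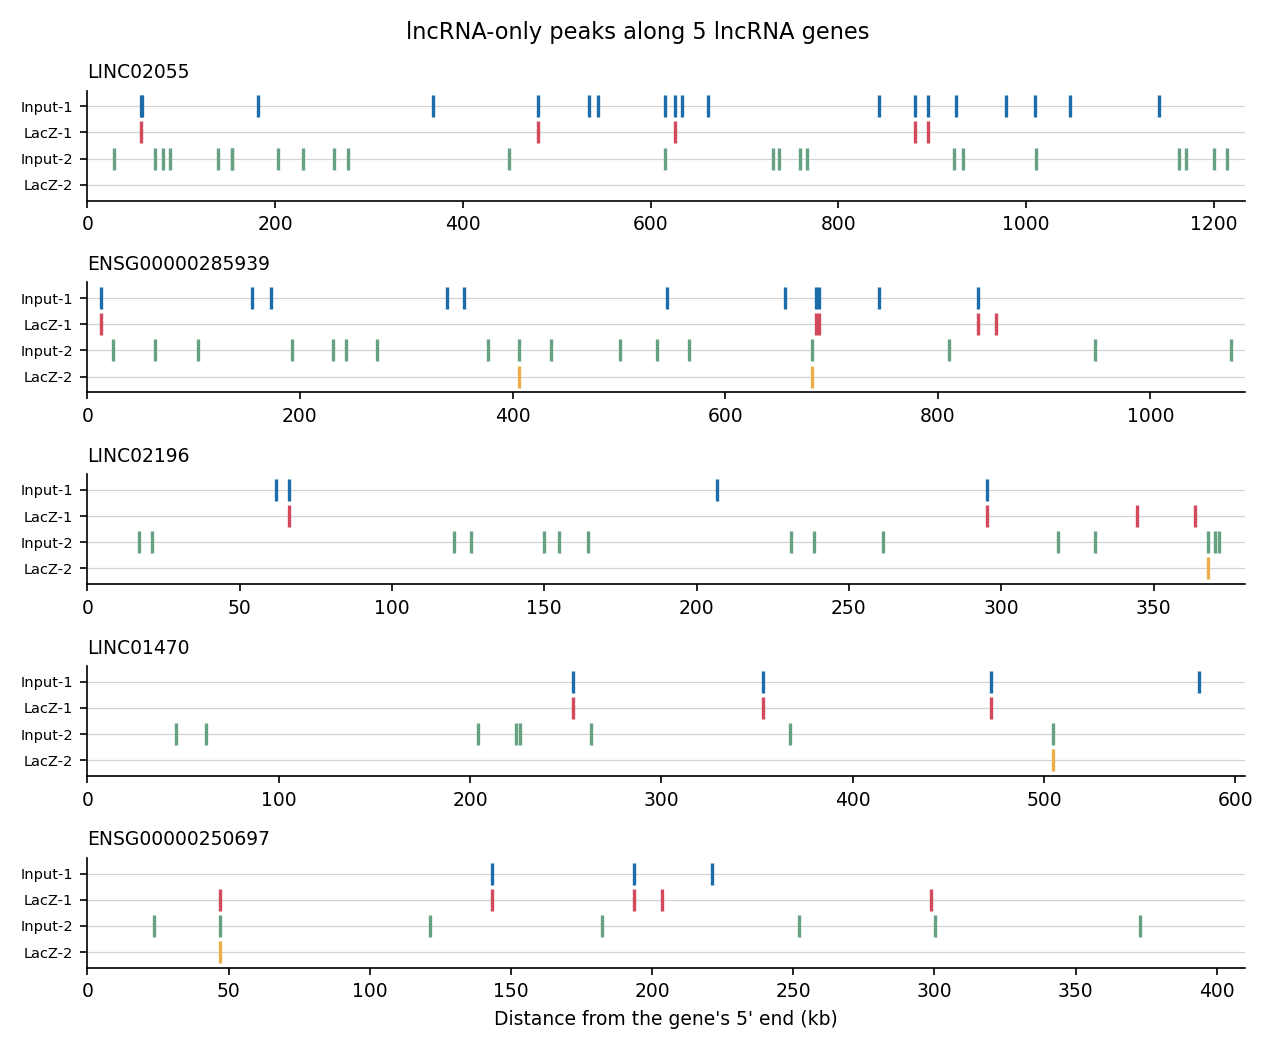
Positions of lncRNA-only peaks along 5 of the named genes, as distance in kb from the gene's 5' end, with a row per list and a tick per peak midpoint. Many ticks align between the lists of 1 replicate, whereas ticks of different replicates mostly lie at different positions. In ENSG00000250697 a tick of LacZ-1 coincides with ticks of Input-2 and LacZ-2.

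LINC01470 on chromosome 5 (605 kb) shows this pattern. Its best replicate 1 peak, chr5:152870004-152870425, scored 141.54 against Input and 141.53 against LacZ and had no call in replicate 2. Its replicate 2 LacZ peak, chr5:152718402-152719270, scored 71.81, with 78.82 against Input, and had no call in replicate 1. Among the strongest replicate 1 peaks, that at RNU6-1 was called in replicate 2 and not against LacZ, whereas those named next were called over both controls and not in replicate 2. LPAL2, a pseudogene related to the apolipoprotein(a) gene and annotated as lncRNA, scored 150.18 against Input and 181.25 against LacZ (rank 7 of that list), and ENSG00000263923 scored 141.12 and 156.31. ENSG00000259639 held the next LacZ peak (148.41), tied with SPRY4-AS1, which lies antisense to SPRY4, a gene for an inhibitor of receptor tyrosine kinase signalling. In Input-2, the peaks after RNU6-1 lay in LINC02934 (155.48, not called in replicate 1) and at the ENSG00000287176 region. In LacZ-2 the third highest was in ENSG00000285939 (70.83).

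The target locus itself was not part of this set. The LINC01767 gene, which encodes CRLM1 (chr1:56414918-56417137), lies wholly within the body of ENSG00000284686, a gene model that GENCODE labels protein-coding, and so has 0 bp of lncRNA-only sequence. Its peaks scored 1008.27 in Input-1, 1466.89 in LacZ-1, 1580.45 in Input-2 and 935.57 in LacZ-2. The RNU6-1 peak exceeded the LINC01767 peak in Input-2 and was the lower of the pair in Input-1.

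A list of 50 lncRNAs linked to colorectal cancer or other cancers was examined by name. Of these, 47 matched an autosomal lncRNA gene and 42 had lncRNA-only sequence, with a median of 27.4 kb. A peak in any list was held by 18 of the 42, beside 2337 of all 11897 genes. By list, 10 (23.8%) held one in Input-1, 14 (33.3%) in LacZ-1, 10 (23.8%) in Input-2 and 0 in LacZ-2, beside 8.90%, 9.59%, 13.3% and 0.429% of all genes. Both Input lists hit 7 (16.7%), beside the 4.93% of all genes, whose median length was 9.28 kb. The part of gene length in that difference was not tested.

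The 7 genes hit in both Input lists were CASC9 (4 and 4 peaks in replicates 1 and 2), HULC (4 and 6), PCAT1 (6 and 3), CASC15 (1 and 7), MIR100HG (1 and 2), MIR31HG (1 and 1) and CASC19 (1 and 1). MIR100HG and MIR31HG are host genes of microRNAs, and PCAT1 and CASC19 share peaks because their annotated bodies overlap in the chromosome 8 region upstream of MYC. In none of the 7 did the peaks of the replicates overlap. The closest pairs were 0.940 kb apart in MIR100HG, 1.39 kb apart in CASC9 and 2.09 kb apart in CASC15, and the farthest of these closest pairs was 60.7 kb apart, in MIR31HG. The highest score was 124.22, in CASC9 in Input-2, and HULC reached 120.66 in the same list, inside an annotated body of 859 kb that reaches far beyond the short transcript for which HULC is known.

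The other 11 genes had no peak in both Input lists. PVT1, next to MYC, had 1 peak against LacZ in replicate 1 (69.98) and 2 against Input in replicate 2. LINC01234 had 3 against LacZ in replicate 1, the best at 88.44, and 1 against Input in replicate 2. ZEB1-AS1, which lies antisense to the gene for the mesenchymal transcription factor ZEB1, had 1 against Input and 2 against LacZ, all in replicate 1, the best at 87.32. BANCR, DANCR, MEG3, ZFAS1 and LINC00511 had peaks only in LacZ-1, with best scores between 53.96 and 72.21. CASC8 and MIR17HG had 1 each in Input-1, and CRNDE had 1 in Input-2.

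By kind of gene, densities in Input-1 were 3.86 peaks per Mb in LINC genes, 3.73 in genes with only an Ensembl identifier, 3.56 in antisense genes, 3.53 in divergent transcripts and 3.37 in small RNA hosts. In LacZ-1 the same kinds held 3.67, 3.37, 3.43, 3.94 and 3.26, and in Input-2 7.19, 6.24, 5.26, 4.82 and 4.95. The 10 intronic or overlapping transcripts (-IT, -OT) had 0 peaks in Input-1 and LacZ-1 and 8 in Input-2, or 7.42 per Mb over 1.08 Mb. They had 1 in LacZ-2 (0.927 per Mb). Genes of no named kind held 2.48, 2.87 and 4.93 peaks per Mb in the first 3 lists. Apart from the 10 -IT and -OT genes, LINC genes ranked first in both Input lists, whereas divergent transcripts ranked first against LacZ in replicate 1. That rank was not seen in LacZ-2, where divergent transcripts held 1 peak (0.0588 per Mb). Antisense genes held 6 there (0.157 per Mb) and LINC genes 16 (0.132 per Mb). Peaks in overlapping genes count for each gene here.

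Within genes, peaks were mostly intronic. Exons make up 5.62% of lncRNA-only sequence, and an exonic midpoint was found for 3.68% of peaks in Input-1 (exact interval 2.79 to 4.75), 5.42% in LacZ-1 (4.30 to 6.71), 4.36% in Input-2 (3.61 to 5.22) and 2.08% (1 of 48) in LacZ-2. Sequence within 2 kb of a lncRNA TSS makes up 9.57%, and it held 5.52% (4.43 to 6.79), 9.38% (7.92 to 11.0), 7.30% (6.33 to 8.37) and 0% (0 of 48, 0 to 7.40) of the peaks in the same order. Both Input lists thus lay below the sequence share for exons and for start sites. LacZ-2 lay below it for start sites, whereas its exon interval (0.0527 to 11.1) and both intervals of LacZ-1 included the sequence share. When each gene was cut into 3 equal parts from its 5′ to its 3′ end, the parts held 32.8%, 34.2% and 33.0% of the peaks of Input-1 and 33.9%, 32.3% and 33.8% of those of Input-2.

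By chromosome, lncRNA-only peaks were densest on chromosome 8 in Input-1 and on chromosome 5 in the other lists. Chromosome 5 held 5.66, 5.11, 10.0 and 0.352 peaks per Mb of lncRNA-only sequence in Input-1, LacZ-1, Input-2 and LacZ-2. Chromosome 8 held 7.39, 3.43, 7.78 and 0.105 in the same order, so that it stood above the average of all lncRNA-only sequence against Input and not against LacZ. Second place went to chromosome 17 against LacZ (4.78 and 0.311 in replicates 1 and 2) and to chromosome 18 in Input-2 (99 peaks over 12.4 Mb). The LacZ-2 value of chromosome 17 rests on 3 peaks, 2 of them in ENSG00000285939. Chromosomes 5 and 8 together held 26.6%, 18.9%, 21.7% and 31.2% of the lncRNA-only peaks of the 4 lists, over 15.1% of the lncRNA-only sequence. They also held 11 of the 18 regions shared by replicates. The first 50 Mb of chromosome 5 alone held 20.5 peaks per Mb in Input-2 and 8 of the 48 peaks of LacZ-2. All autosomal peaks showed like values on chromosome 5 (5.27, 5.17 and 10.2 per Mb in the first 3 lists). On chromosome 8 they held 5.61, 3.51 and 6.84 per Mb, below the lncRNA-only values against Input and near that in LacZ-1.

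**Figure D5:**
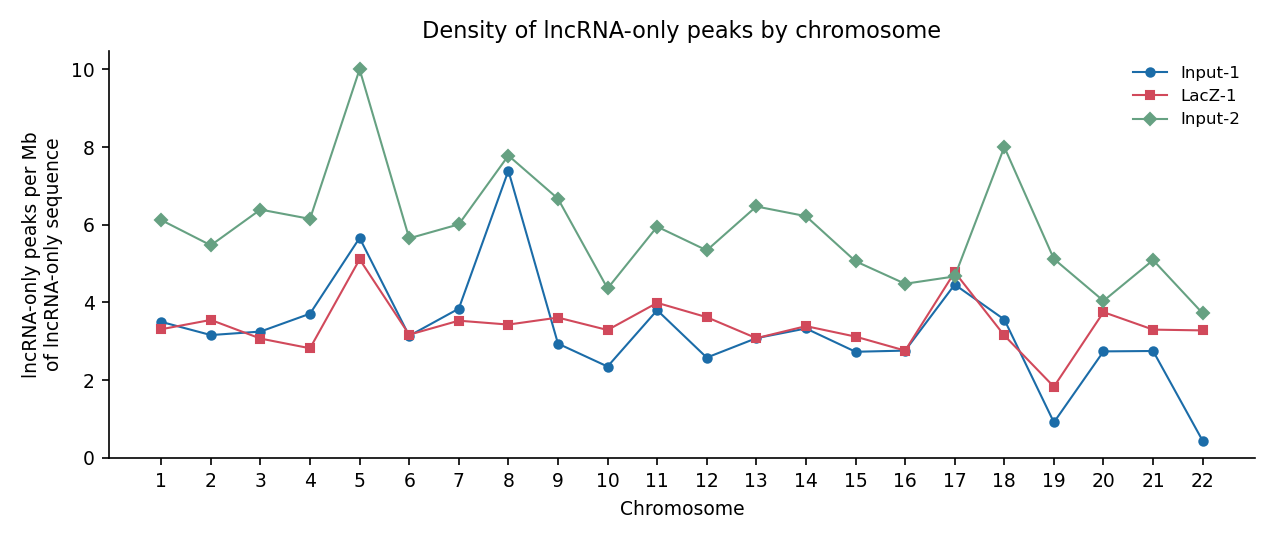
LncRNA-only peaks per Mb of lncRNA-only sequence on chromosomes 1 to 22 in the 3 larger lists. Chromosome 5 stands high in all 3 (5.66, 5.11 and 10.0), and chromosome 8 in both Input lists (7.39 and 7.78) but not against LacZ (3.43).

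Median GC content of lncRNA-only peaks was 38.0% in Input-1, 40.0% in LacZ-1, 37.9% in Input-2 and 35.5% in LacZ-2, with 39.8% over all lncRNA-only sequence. The other peaks of the same lists had medians of 37.9%, 41.5%, 39.0% and 40.4%. TCCC, counted on both strands as TCCC or GGGA, had a median of 6.62, 7.52, 6.41 and 5.56 per kb in lncRNA-only peaks and 6.31, 7.91, 6.99 and 7.46 in the other peaks. Only in Input-1 was the lncRNA-only median above that of the other peaks for either measure. Runs of 6 or more GA units, on either strand, were found in 1.18%, 1.39%, 1.47% and 0% of lncRNA-only peaks, beside 1.06%, 1.10%, 0.933% and 1.28% of the others. Such runs of CA units were found in 2.43%, 2.43%, 2.97% and 2.08%, beside 2.87%, 2.97%, 3.19% and 4.79%. Those of TA units were found in 0.592%, 0.556%, 0.579% and 0%, beside 0.466%, 0.432%, 0.619% and 1.28%. Runs of 15 or more A or T were found in 13.8%, 15.5%, 12.4% and 27.1%, beside 15.7%, 19.3%, 16.5% and 37.1%, so they were less common in lncRNA-only peaks in all 4 lists.

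Sequence shared with the capture probes was rare. The 9 CRLM1 probes were searched for exact matches of at least 15 bases on either strand, and 3 of the 5599 lncRNA-only entries held one. The matching probes are shown 5′ to 3′ with the matching bases in capitals.
CRLM1-5, matching a replicate 1 Input peak in ENSG00000289146: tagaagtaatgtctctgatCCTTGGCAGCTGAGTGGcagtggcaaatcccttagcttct
CRLM1-4, matching a replicate 2 Input peak in ENSG00000285681: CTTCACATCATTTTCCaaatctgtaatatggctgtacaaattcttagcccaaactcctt
CRLM1-9, matching a replicate 2 Input peak in ENSG00000286121: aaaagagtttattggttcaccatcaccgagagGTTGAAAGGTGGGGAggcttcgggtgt
The matches were 17, 16 and 15 bases long and the peaks scored 50.80, 76.61 and 59.49. The 21 LacZ probes gave the same kind of match in 1 lncRNA-only peak of Input-1 and 2 of Input-2. The probe sets differ in size, with 810 distinct stretches of 15 bases on both strands for CRLM1 and 1890 for LacZ, so equal counts do not mean equal rates. Over all autosomal peaks, CRLM1 probes matched 9, 7, 10 and 1 peaks of Input-1, LacZ-1, Input-2 and LacZ-2, and LacZ probes matched 1, 3, 5 and 0. The peaks searched here included those at LINC01767, whose RNA the CRLM1 probes target, and matches at that gene were not counted apart. None of the 18 regions shared by replicates was among the 3 peaks.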

How the data were processed

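ChIRP-seq libraries of HCT116 were represented by 4 peak lists. Per the labels and the study's methods, the authors trimmed reads with cutadapt, aligned them to GRCh38 with Bowtie2 and called peaks with MACS. The methods describe calls for the CRLM1 and the LacZ pull-downs over Input, followed by removal of CRLM1 peaks that overlap LacZ peaks. The labels instead name 1 list per replicate and control (Input or LacZ), and this naming was followed. Each deposited list gives start, end and a score per peak. Nothing states what scale the score is on, and the caller's release was not settled, since the methods name MACS2 whereas the peak names are those of an older release. No read counts were given, so weak calls cannot be set against depth. Any peak called over Input but not over LacZ, or the reverse, can reflect the control library.

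Gene bodies, exons and start sites were taken from GENCODE release 44, and small RNA genes from RefSeq (GRCh38.p14). Coordinates are 1-based. Peaks were placed by midpoint, overlap meant at least 1 bp, and shares carry exact (Clopper-Pearson) 95% intervals. Replicates come from separate labelled samples, and nothing says whether they were separate cultures. No test was run, as each replicate and control gave 1 list. The interval functions were checked on simulated data against bedtools 2.31.1 (Python 3.11.15, pandas 2.3.3, SciPy 1.17.1, pysam 0.24.0).

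Genes were named by rule: those at regions shared by replicates, up to 25 of those hit in both replicates against LacZ, the 15 with the most peaks in both Input lists, the 3 strongest peaks per list, LINC01767 and the cancer lncRNAs with a peak. Of the genes hit in both replicates against LacZ, all 27 are given. The rule, the members and the gene list were chosen with earlier results of these data known. The share of repeats was planned but not computed, because the genome sequence used carries no repeat marks. Some sequences are not reported here. Probe sequences were read from the study's supplementary table. The alternatives tried are listed in the closing section.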

Additional observations from a re-analysis of the deposited data

Results flagged for a closer look

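Chromosome X lay outside the autosomal rule but held peaks of the same kind. By the same criteria, 8 peaks of Input-1, 8 of LacZ-1, 15 of Input-2 and 0 of LacZ-2 were lncRNA-only. Over 16.6 Mb of such sequence this came to 0.483, 0.483 and 0.906 peaks per Mb in the first 3 lists, beside 3.67, 3.48 and 6.25 on the autosomes. In each of these lists the density on chromosome X was under that of the autosomes. No cause was tested.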

How the results depend on the processing

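The share of lncRNA-only peaks in each list stayed within its exact interval under the 5 alternatives tried for it (no exclusion around coding start sites, an exclusion of 5 kb, whole-peak placement, curated gene models only, and peaks at or above the median score). Of 55 alternatives in all, 42 left the value within its interval or within 1.5 times the count, and 13 moved it. The 42 include the curated gene models, which gave the same counts as the main setting wherever tried and so say nothing about stability. Accepting peaks within 1 kb raised the share found again against Input to 2.10% in replicate 1 and 1.27% in replicate 2. At that setting the shares of all autosomal peaks were higher, at 3.48% and 1.79%. The shared regions rose to 43, with no count over all autosomal peaks to set beside them. Requiring a reciprocal overlap of 50% left 11 regions. Keeping peaks at or above the median score left 8 regions, 257 genes hit in both replicates against Input and 15 against LacZ. Leaving out chromosomes 5 and 8, an alternative chosen after seeing the data, left 7 regions and 15 genes against LacZ, and lowered the share found again against Input to 0.627% and 0.345%. Against LacZ it fell to 0 in both replicates, since both shared regions lie on chromosome 5. The study's own gene rule (any overlap with the body or the 5 kb upstream) gave 759 genes against Input and 37 against LacZ. No paired analysis was possible because these results come from no test, and leaving out a replicate gives no value, as each list is 1 replicate. Depth is unknown, so a peak missing from a list may be undetected there.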
